A study of Arabidopsis thaliana with 96 samples.

Results

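The genes described here encode the proteins of the small (40S) subunit of the cytosolic ribosome of Arabidopsis thaliana. The members are listed 40S genes, given by AGI code, that have a probe set paired with exactly 1 gene in the annotation of the ATH1 array. Of 60 listed genes, 36 had such a probe set, and they cover 19 of 26 protein families, among 13355 genes measured in all. The other 24 codes are not analysed here. Values of 5 or more (log2) in at least 1 group mean were required for testing, which 35 of the 36 passed, among 7281 genes in all. The member that did not pass was AT2G39590, an RPS15a gene, whose 96 values lay between 2.08 and 2.95 with a mean of 2.35. Of the 35, 2 reached a mean of 5 in salt groups alone, as did 778 of all genes tested, so these had to differ between media. One is the RPS9 gene AT5G39850, with group means of 3.61 to 4.37 in standard medium, and the counts below hold 33 members besides.

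Roots came from Columbia seedlings 5 to 7 days after germination, grown in standard medium and sampled there at 1 h and 48 h, or moved to the same medium with 140 mM NaCl for 1, 3, 8, 20, 32 or 48 h. Roots were protoplasted and the cells sorted on a GFP reporter. WER::GFP was used for the epidermis, COR::GFP for the cortex, SCR::GFP for the endodermis and WOL::GFP for the stele, which holds the vascular tissue. Each of the 32 groups had 3 arrays, and each cell type 24. Reporter line and cell type cannot be told apart, since each type has its own line, and all groups carry a reporter. In these sorted samples, fewer cells of a kind and less RNA per cell cannot be told apart either. Nothing in the labels says that replicates came from separate cultures, so p-values cover no more than the spread among these arrays, and that spread may be technical.

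The small subunit reads messenger RNA. It binds initiation factors and the initiator transfer RNA, scans to the start codon and checks codon pairing during elongation. It consists of a head, which carries proteins such as RPS3, RPS10, RPS12, RPS19, RPS25 and RPS27a, and a body with its platform, which carries RPS2, RPS3a, RPS4, RPS7, RPS9, RPS13, RPS14, RPS21 and RPS24. In Arabidopsis most of these proteins are encoded by several genes, and ribosomal protein genes as a class are known for high expression in dividing cells. Paralogous transcripts are similar, and how far a probe set also reads a relative's transcript was not tested.

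Arrays of a group correlated at 0.916 to 0.997 (median 0.982), and array medians over all probe sets lay between 4.51 and 4.97. Mean correlations under 0.95 within the group were found for 3 arrays, namely epidermis standard 48 h replicates 1 and 3 and stele standard 1 h replicate 3. The last stands apart in the genes described here. Their mean was 9.31 in that array, against 7.59 and 7.84 in the other 2 arrays of its group and 7.87 to 8.26 after 48 h in the same medium. Most counts, medians and named changes of the stele in salt are therefore given with and without it. Of the fixed marker genes, both cortex markers had their highest standard level in the cortex (AT1G62510 10.3 ± 0.26, SD, n = 6) and GSO1 in the endodermis (10.3 ± 0.07, against 4.62 ± 0.55 in the epidermis). The epidermis markers EXPA7 and EXPA18 were not highest in the epidermis (EXPA7 9.16 ± 1.47 there and 9.99 ± 0.40 in the stele), and the stele marker LHW was at 4.18 to 4.57 in all 4 types. The markers WER, SCR and WOL were not analysed here.

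In the epidermis the 40S genes rose in salt from the first hour and most rose at least 2-fold by 3 h. Of the 35 genes tested, 27 were higher at 1 h and 35 at each later time (limma, adjusted p under 0.05), and none was lower at any time, also at an unadjusted p under 0.05. The median change was 0.55 (log2) at 1 h, 1.23 at 3 h, 1.14 at 8 h, 1.33 at 20 h, 1.70 at 32 h and 1.50 at 48 h, where each change is the salt mean of 3 arrays minus the mean of the 6 standard arrays of that cell type. At least 2-fold rises were called for 1, 30, 26, 33, 35 and 34 genes at the same times. Among all 7281 genes they numbered 303, 957, 791, 1010, 1253 and 1226, so the 1 h member share was below that of all genes. Among all 7281 genes, 30.4%, 39.1%, 38.5%, 41.3%, 38.6% and 38.6% were higher at these times, 13.5%, 23.4%, 23.1%, 23.7%, 29.5% and 29.7% were lower, and 22.6% rose at least 2-fold at some time. The median of all genes moved by 0.13, 0.12, 0.14 and 0.16 at 1 to 20 h, so the medians above carry that shift. The mean level of the 35 genes was 8.84 ± 0.24 (SD) over the 6 standard arrays and 10.6 ± 0.04 (n = 3) at 32 h. The 3 salt arrays lay above all 6 standard arrays for 7 members at 1 h and for all 35 at each later time. The shares of all genes in that position were 15.6%, 27.6%, 28.4%, 30.7%, 29.7% and 29%, so the 1 h count is close to the share of all genes.

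The count at 1 h is the least secure in the epidermis. It fell to 4 without salt 1 h replicate 1 and to 13 without standard 1 h replicate 3, to 10 against standard 1 h alone, to 12 after centring each array on its median, and to 0 with array weights. Ubiquitin, 1 of 3 transcripts with probe sets near both ends, had a 3′ minus 5′ difference of 1.11 ± 0.01 in the 1 h salt arrays, below the 1.27 ± 0.10 of the standard arrays, and its part in the result was not tested. For actin the difference at 48 h was above that of all standard arrays (3.93 ± 0.09 against 3.41 ± 0.26). The epidermis markers EXPA7 and EXPA18, which mark root hairs, were both lower at 3, 8, 32 and 48 h, with a median change of -2.36 at 32 h. In the same cells PRL, a replication licensing gene, rose by 1.99 at 32 h and LHW by 0.97, while GSO1 was at -1.01. The epidermis standard means of PRL and LHW, 4.96 and 4.18, lay near or below the array medians. The part of such shifts in the make-up of the sorted cells was not tested.

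**Figure D1:**
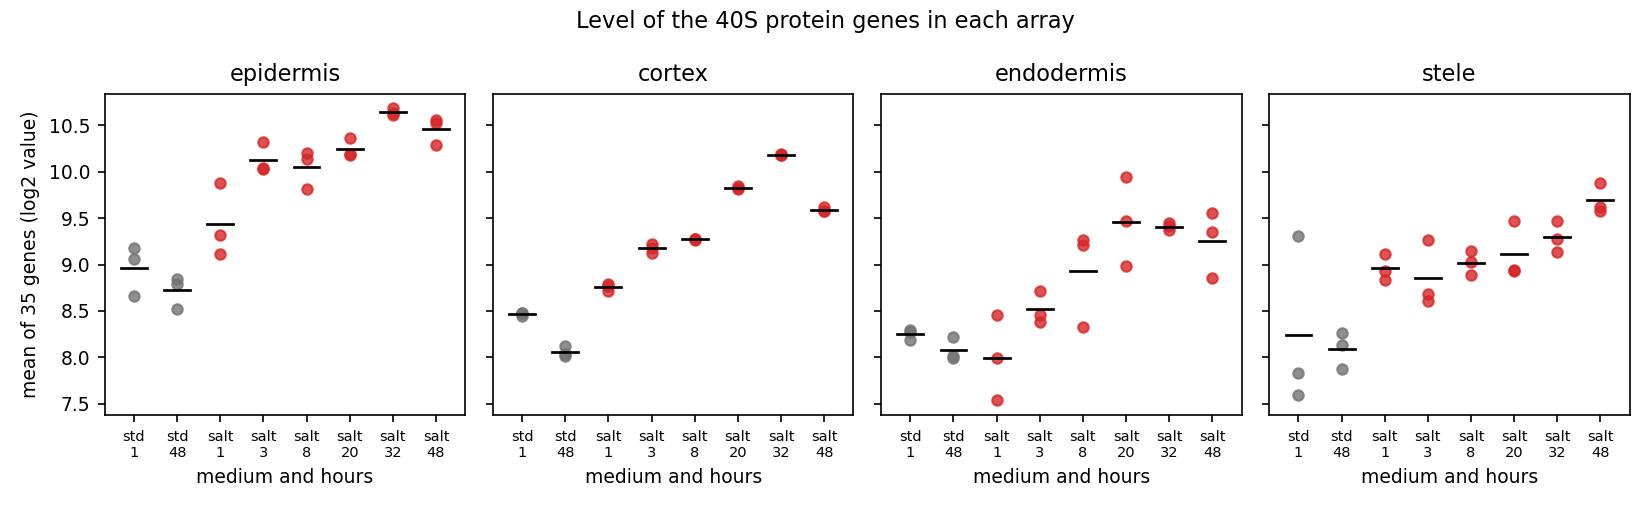
Mean log2 value of the 35 tested 40S protein genes in each array (y axis) by medium and hours (x axis, std is standard medium), with a panel for each cell type, a point for each array and a line for each group mean. The 3 cortex arrays of a group lie close together, and stele standard 1 h replicate 3, at 9.31, lies above the other 5 standard arrays of the stele.

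In the cortex the genes climbed more evenly, and the rise was largest at 32 h. Higher genes numbered 21 at 1 h and 35 at every later time, with none lower, also at an unadjusted p under 0.05. The median change was 0.51, 0.94, 1.02, 1.55, 1.87 and 1.28 at 1, 3, 8, 20, 32 and 48 h. Rises of at least 2-fold were called for 1, 11, 21, 35, 35 and 34 genes. Such rises numbered 241, 294, 565, 883, 1005 and 812 among all 7281 genes, and the 1 h member share was below theirs. Of all genes, 24%, 20.7%, 32.2%, 32.7%, 34.9% and 32.9% were higher, 20.3%, 19.7%, 25.2%, 28.5%, 30.8% and 28.1% were lower, and 19.1% rose at least 2-fold at some time. The mean level went from 8.26 ± 0.23 over the 6 standard arrays to 10.2 ± 0.01 at 32 h. All salt arrays lay above all standard arrays for 26 genes at 1 h and for all 35 from 3 h on, against 24.6%, 23.6%, 31.5%, 32.2%, 34% and 31.7% of all genes. In the same arrays both cortex markers were lower at 8, 20 and 32 h (medians -2.11, -1.97 and -0.94), and GSO1 was at -1.89 at 20 h and -1.53 at 32 h. At 32 h LHW rose by 0.90 and PRL by 1.67, from low standard means of 4.51 and 4.38. The part of these shifts was not tested.

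The cortex at 1 h depends on its reference. In standard medium the list mean was 8.46 ± 0.02 at 1 h and 8.06 ± 0.05 at 48 h (n = 3 each), a difference not tested as such. Between these times 1 member was called, against 11.7% of all genes. Against standard 1 h alone, 2 genes were higher after 1 h of salt, with a median of 0.30, and against standard 48 h alone 26 genes, with a median of 0.68. Leaving out any of the 3 salt arrays gave 10 to 12 (10 without replicate 3, 11 without replicate 2, 12 without replicate 1). The count was 32 with array weights, 31 in a fit on the cortex alone and 27 without the 3 arrays of low correlation. At 48 h against standard 48 h alone, the matched time, the median was 1.50 and all 35 were higher. For actin the 3′ minus 5′ difference was above that of all standard arrays at 32 h (4.22 ± 0.22 against 3.63 ± 0.19) and 48 h, and that of GAPDH at 3 h (0.62 ± 0.06 against 0.36 ± 0.09), and their part was not tested.

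In the endodermis the rise came later. At 1 h no 40S gene was higher and 5 were lower, with a median of -0.19 (0 and 8 at an unadjusted p under 0.05). Higher genes then numbered 7 at 3 h, 30 at 8 h and 35 at 20, 32 and 48 h, with none lower after 1 h. The medians at those 5 times were 0.30, 0.76, 1.23, 1.20 and 1.05, and 2, 4, 27, 26 and 21 genes rose at least 2-fold. So did 453, 605, 948, 750 and 743 of all 7281 genes, and the 3 h member share was below theirs. Among all genes 19.4%, 27.5%, 29.4%, 36.3%, 34.4% and 35.6% were higher at 1 to 48 h, 27.7%, 31.8%, 31%, 29.7%, 28.4% and 29.3% were lower, and 17.8% rose at least 2-fold at some time. At 1 h the share of 40S genes called lower was thus below that of all genes called lower. The mean level was 8.16 ± 0.13 over the 6 standard arrays, 7.99 ± 0.46 at 1 h and 9.46 ± 0.48 at 20 h. Salt arrays cleared all standard arrays for no member at 1 h, 15 at 3 h, 10 at 8 h, 35 at 20 and 32 h and 31 at 48 h, against 13.9%, 24.4%, 21.7%, 27.2%, 30.6% and 29% of all genes. Both cortex markers were lower at all 6 times, with medians of -2.21 at 1 h and -4.14 at 8 h. Both epidermis markers were lower from 3 h on (median -3.00 at 3 h). GSO1 was higher by 0.91 at 1 h and by 0.50 at 8 h, and lower at 32 h and 48 h (-0.61 at each). LHW was higher by 1.46 at 20 h. The part of these shifts was not tested.

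The 5 genes that fell at 1 h in the endodermis were AT3G53890 (RPS21), AT3G04920 and AT5G28060 (both RPS24), AT2G17360 (RPS4) and AT3G11510 (RPS14), all of the body, as are 23 of the 35 tested. Head genes lay close to the threshold, such as AT5G61170 at -0.48 (limma adjusted p = 0.051) and AT4G39200 at -0.38 (limma adjusted p = 0.051). AT3G53890 read 9.41, 8.61 and 8.87 in the 3 salt arrays and 9.40 to 9.77 in the 6 standard arrays, a fall of 0.55 (SE 0.17, limma adjusted p = 0.0054). Replicate 2 is the lowest of the 3, and replicate 1 lies within the standard range. AT3G04920 read 7.97, 7.23 and 7.84 against 7.99 to 8.36, a fall of 0.50 (SE 0.21, limma adjusted p = 0.046). AT2G17360 read 7.82, 7.18 and 7.40 against 7.90 to 8.09, a fall of 0.50 (SE 0.16, limma adjusted p = 0.0076). In the last 2 genes the salt arrays all lie below the standard arrays, while in the other 3 they overlap.

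These falls rest on single arrays. Without salt 1 h replicate 2 no gene was lower and the median turned to 0.05, without replicate 1 the count was 11, and without replicate 3 it was 2. It was 2 to 3 when standard 1 h replicate 2 or 3 or standard 48 h replicate 1 was left out. With array weights 19 were lower and 3 higher. That fit leans on salt 1 h replicate 3, with a weight of 16.4 against 0.24 and 0.46 for replicates 1 and 2. In the same arrays the 3′ minus 5′ difference of GAPDH was 1.43 ± 0.07 against 0.48 ± 0.15 in the standard arrays, and that of ubiquitin was 1.17 ± 0.02 against 1.01 ± 0.08, with no overlap in either. GAPDH was also above all standard arrays at 3, 8 and 48 h and ubiquitin at 20 and 48 h, and their part in the results was not tested. The 8 h count fell to 19 without salt 8 h replicate 3, and the 3 h count to 2 without salt 3 h replicate 1.

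In the stele most of the genes were higher at 1 h, and the median was highest at 48 h. Higher genes numbered 31, 29, 32, 35, 35 and 35 at 1 to 48 h, with none lower, also unadjusted, and the medians were 0.81, 0.69, 0.85, 0.92, 1.13 and 1.51. At least 2-fold rises were called for 4, 0, 8, 10, 27 and 35 genes. They numbered 307, 536, 521, 367, 561 and 835 among all 7281 genes, so the 3 h member share was below that of all genes. Of all genes 28.8%, 35.3%, 33.9%, 30.5%, 35.8% and 38.5% were higher, 22.5%, 26.8%, 23.9%, 21%, 23.9% and 27% were lower, and 18% rose at least 2-fold at some time. The median of all genes moved by 0.14 at 32 h and 0.13 at 48 h. The mean level went from 8.17 ± 0.61 over the 6 standard arrays to 9.69 ± 0.16 at 48 h.

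Standard 1 h replicate 3 of the stele sets both the spread and part of the size. Without the 3 arrays of low correlation, of which only that array is from the stele, the counts were 35, 33, 35, 35, 35 and 35 and the medians 1.05, 0.99, 1.10, 1.19, 1.39 and 1.76. With it in, the 3 salt arrays lay above all 6 standard arrays for 1 gene at each time from 1 to 20 h, for 11 at 32 h and for 30 at 48 h, against 15.6%, 23.7%, 18.4%, 16%, 20.4% and 24.6% of all genes. The member count is thus below that share up to 20 h. Rises of at least 2-fold numbered 24, 16, 26, 31, 35 and 35 without those arrays. In the stele arrays the cortex markers had medians of -1.30 at 1 h and -2.57 at 8 h, the epidermis markers -1.81 at 3 h and -1.99 at 48 h, and GSO1 was at -1.60 at 48 h. LHW rose at all 6 times, by 0.54 at 1 h and 1.35 at 48 h, and the part of these shifts was not tested. The 3 h count was 17 without salt 3 h replicate 1.

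**Figure D2:**
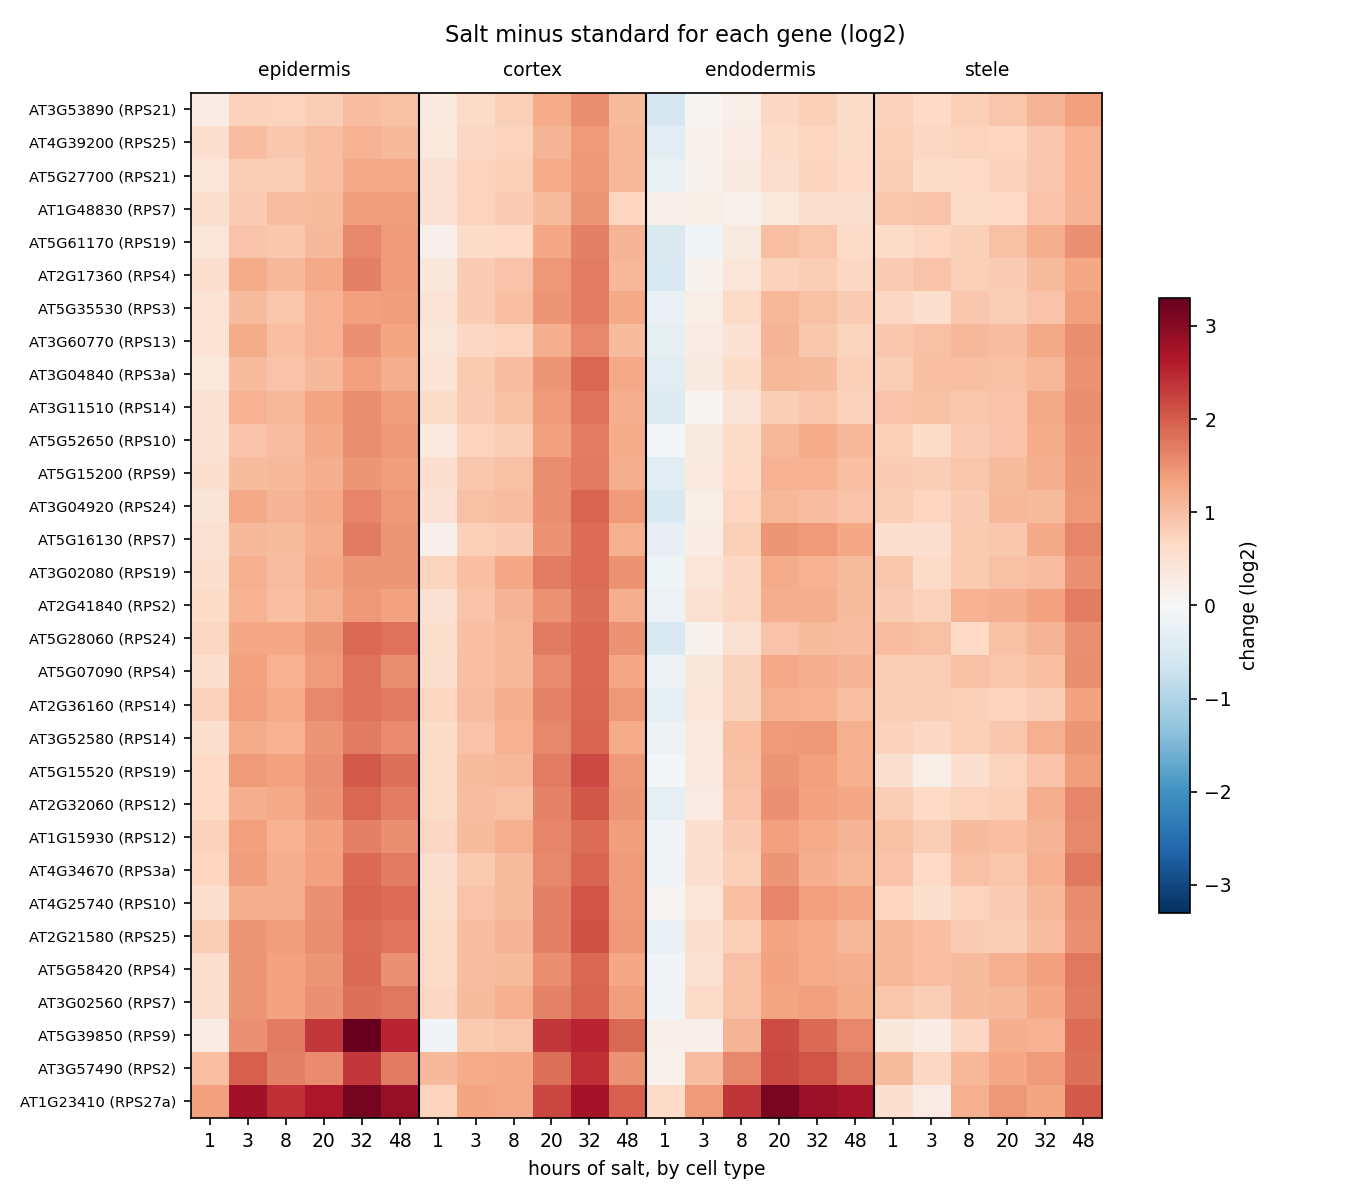
Change of 31 of the 35 tested 40S protein genes (rows, with the family in brackets) at 6 salt times in 4 cell types (columns), as salt minus standard on the log2 scale. Rows are in order of the mean change over the 24 comparisons, from AT3G53890 at 0.73 at the top to AT1G23410 at 1.89 at the bottom. Blue at endodermis 1 h marks negative values, of which 5 were called.

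The largest mean change over the 24 comparisons was that of AT1G23410, an RPS27a gene. RPS27a is made as a fusion to ubiquitin and sits in the head of the subunit. In the endodermis AT1G23410 read 7.41, 6.62 and 7.97 after 20 h of salt, against 4.05 to 4.36 in the 6 standard arrays, a change of 3.14 (SE 0.34, limma adjusted p = 1.2e-12). These standard values lie below every array median, so the size of that change is given as a description. In the epidermis AT1G23410 read 8.52, 8.36 and 8.52 at 32 h against 4.49 to 5.92, a change of 3.16 (SE 0.34), or 8.92-fold. Neither set of salt arrays overlaps its standard arrays. In the cortex at 32 h its values were 8.14, 8.24 and 8.06 against 4.74 to 5.81, a change of 2.75 (SE 0.34). In the stele at 48 h they were 7.19, 6.98 and 7.41, a change of 2.01 (SE 0.34), and here standard 1 h replicate 3, at 7.20, overlaps them while the other 5 standard arrays lie between 4.46 and 5.24. Without the 3 arrays of low correlation, of which only that array is from the stele, the change was 2.45 (SE 0.29). The gene was called higher in 20 of 24 comparisons, each time at least 2-fold.

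Other genes with large rises belong to the body. The RPS9 gene AT5G39850, whose protein lies near the entry of the messenger RNA channel, read 6.94, 7.70 and 7.49 in the epidermis at 32 h against 3.76 to 4.43 in standard medium. The difference was 3.28 (SE 0.25). It was 2.51 (SE 0.25) in the cortex at 32 h and 1.85 (SE 0.25) in the stele at 48 h, or 2.09 without the stele array that stands apart. Its standard values in the epidermis lie below every array median, and the gene passed the filter through salt groups alone. These differences are therefore given as a description and no fold is drawn from them.

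AT3G57490, an RPS2 gene, read 6.86, 5.78 and 7.29 in the endodermis at 20 h against 4.30 to 4.71, a change of 2.17 (SE 0.28, limma adjusted p = 6.2e-10). The salt arrays stand clear of the standard arrays, and salt 20 h replicate 2 is the lowest of its group. Its standard group means in the endodermis, 4.47 and 4.49, lie below every array median, so the size of that change is given as a description.

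**Figure D3:**
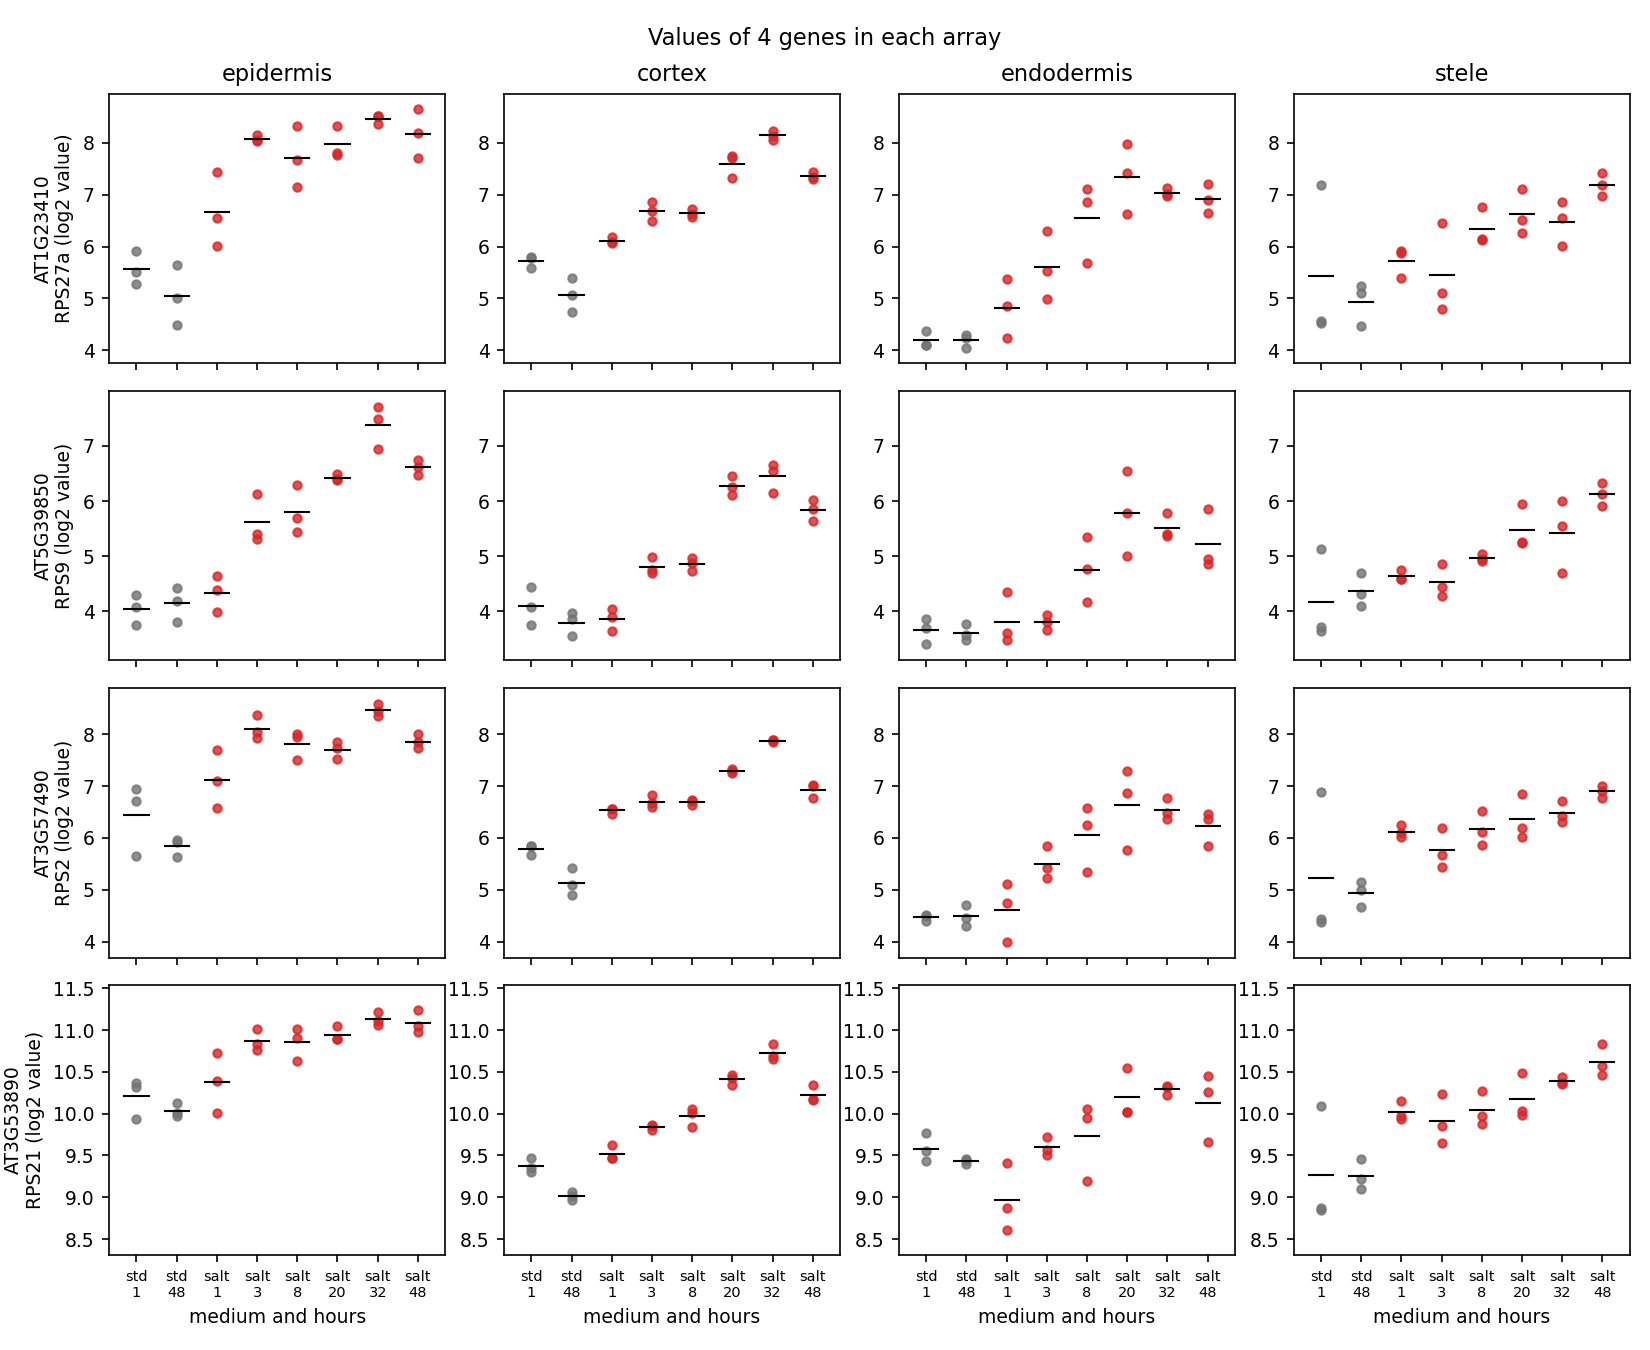
Log2 values of 4 genes in each array (y axis, 1 scale per row) by medium and hours (x axis) in the 4 cell types. Points are arrays and lines are group means. AT1G23410, AT5G39850 and AT3G57490 reach their highest group means in the epidermis at 32 h, and AT3G53890 has its lowest in the endodermis after 1 h of salt.

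The smallest mean changes over the 24 comparisons were those of AT3G53890 and AT5G27700, the 2 measured RPS21 genes (0.73 and 0.77), of the RPS25 gene AT4G39200 (0.75) and of the RPS7 gene AT1G48830 (0.78). Large mean changes at the other end were those of AT1G23410 (1.89), AT3G57490 (1.48) and AT5G39850 (1.36). Grouping by role did not separate them. The 12 genes of head proteins had a median mean change of 1.11 and the 23 of body proteins 1.05. It was 1.06 both for the 10 genes of proteins found in all domains of life and for the other 25. By signal, the 7 genes with a mean value under 8 had a median of 1.36 and a range of 1.10 to 1.89, and the 28 others a median of 0.99 and a range of 0.73 to 1.19. The filter favours weak genes that rose, so part of this split is fixed by it. Without the 2 members that passed through salt groups alone, a setting chosen after seeing the data, the weak genes numbered 5, with a median of 1.48. Across the 35 genes, mean value and mean change correlated at Pearson's r = -0.70 and Spearman's rho = -0.66, and at -0.73 and -0.61 across the 33. Across 73 large subunit genes they were -0.13 and -0.23, and across all genes tested 0.04 and -0.01. The points share the 96 arrays, a probe set's value also depends on its own probes, and the part of signal compression in bright probe sets was not tested.

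Among the 40S genes the profiles were alike. Over the 32 group means the median correlation between 2 of the 35 genes was 0.97 (range 0.83 to 0.995, 595 pairs), while that between all genes tested was 0.01. The least alike were AT5G39850 (mean r with the other members 0.90) and AT1G48830 (0.90). All points of these correlations come from the same arrays and include the differences between cell types. AT1G48830 departs mainly in the endodermis, where it read 9.23, 8.75 and 9.39 after 8 h of salt against 8.85 to 9.05, a change of 0.15 (SE 0.15, limma adjusted p = 0.38), at a time when 30 of 35 members were higher.

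The largest change of a gene fell at 32 h for 32 genes in the epidermis and at 48 h for the other 3, at 32 h for all 35 in the cortex, at 20 h for 24 and at 32 h for 11 in the endodermis, and at 48 h for all 35 in the stele. Of all genes, 18.9% had their largest change at 32 h in the epidermis, 27.5% at 32 h in the cortex, 22.3% at 20 h in the endodermis and 23.2% at 48 h in the stele. Whether these times differ between cell types was not tested. Levels differed among the 6 salt times (F test, 5 degrees of freedom) for 34 epidermis, 35 cortex, 34 endodermis and 23 stele genes. The shares of all genes were 66.2%, 61.7%, 69.7% and 60.1% in the same order. AT1G48830 was the endodermis exception (range 0.42, limma adjusted p = 0.073), and AT4G39200 that of the epidermis (range 0.60, limma adjusted p = 0.059).

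The difference among the 4 salt responses was tested at each time (F test, 3 degrees of freedom). It passed for 25 genes at 1 h, 25 at 3 h, 4 at 8 h, 8 at 20 h, 20 at 32 h and 6 at 48 h, against 48%, 69.7%, 58.2%, 63.9%, 58.7% and 56.9% of all genes. The member share was above that of all genes at 1 h and below it at 8, 20 and 48 h. At 1 h all 25 had their highest response in the stele and their lowest in the endodermis. Without endodermis salt 1 h replicate 2 the endodermis median at 1 h was 0.05, against -0.19 with it. At 3 h 24 of 25 had the highest in the epidermis and 21 the lowest in the endodermis. At 32 h the cortex was highest for 16 of 20 and the epidermis for 4, and the endodermis or stele was lowest for all 20. The same order was not counted over all genes, so it is a description of the members alone. Without the 3 arrays of low correlation the counts at 8 and 48 h were 9 and 18, and centring took the 3 h count to 13.

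At 1 h the widest range was that of the RPS24 gene AT5G28060 (1.51, limma adjusted p = 0.00017). Its 1 h salt values were 10.05, 9.77 and 9.50 in the stele and 8.74, 7.89 and 8.49 in the endodermis. Standard values were 7.88, 8.27 and 9.79 at 1 h in the stele, the last in replicate 3, and 8.61 to 9.05 in the endodermis over both times. The RPS14 gene AT3G11510 had a range of 1.39 (limma adjusted p = 0.00021). At 3 h the RPS27a gene AT1G23410 was at 8.06, 8.15 and 8.03 in the epidermis, a change of 2.77 (SE 0.34), and at 6.45, 5.10 and 4.79 in the stele, a change of 0.26 (SE 0.34), and its range of 2.51 passed the test (limma adjusted p = 0.00011). Without the 3 arrays of low correlation, the stele change was 0.70 (SE 0.29). The stele salt replicate 1 and standard 1 h replicate 3 are the high arrays there.

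At 32 h AT5G39850 changed by 3.28 in the epidermis and 1.14 (SE 0.25) in the stele, a range of 2.14. Without the stele array that stands apart, its stele change was 1.39. At 20 h the range of AT1G23410 was 1.70, and at 48 h that of the RPS19 gene AT5G61170 was 0.87 (limma adjusted p = 0.038). Among the types its change was 1.51 (SE 0.21) in the stele, or 1.73 without the array that stands apart, and 0.63 (SE 0.21) in the endodermis.

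**Figure D4:**
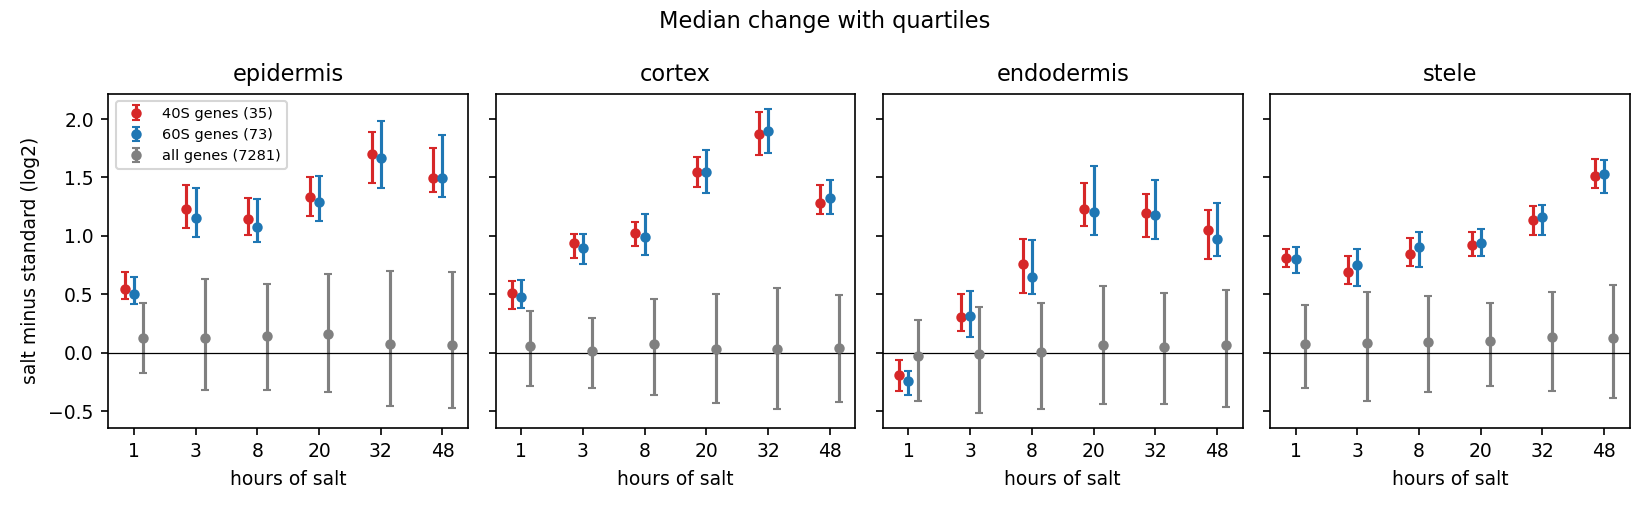
Median change in salt (points, log2) with lower and upper quartiles over genes (bars) at each time and cell type for the 35 tested 40S genes, the 73 tested genes of the large (60S) subunit and all 7281 genes. Both ribosomal lists lie above 1 from 20 h on in the epidermis, cortex and endodermis, apart from the large subunit in the endodermis at 48 h (0.98), and both lie below 0 at endodermis 1 h.

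Genes of the large subunit moved alongside. Of 131 listed, 83 were measured and 73 tested. Their median changes were 0.51, 1.16, 1.08, 1.29, 1.67 and 1.49 in the epidermis over the 6 times, and 0.48, 0.90, 0.99, 1.55, 1.90 and 1.32 in the cortex. At endodermis 1 h 8 large subunit genes were lower and none higher, with a median of -0.24, next to -0.19 for the 40S genes. Of all genes, 27.7% were lower and 19.4% higher there. Over the 32 groups the mean values of both lists correlated at r = 0.999, with the same arrays behind both.

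Nearly every measured factor of ribosome assembly rose too. Of 28 listed factors 10 were tested, and 9 of them were higher in the epidermis at each time from 3 h on, with medians of 2.37 at 3 h and 2.69 at 32 h. All 10 were higher at epidermis 1 h, where AT1G52930, a BRX1-type factor, rose by 1.62 (SE 0.31) and AT2G40360, the BOP1 homologue, by 1.60 (SE 0.27). In the endodermis at 1 h 2 of 10 were higher and 1 lower (19.4% and 27.7% of all genes). At 3 h 9 were higher and 1 lower (27.5% and 31.8% of all genes). The gene that was lower is AT3G15460, another BRX1-type gene, picked after its values were seen, with -1.52 at endodermis 3 h. These values are the background of the pathway and were not tested against the 40S genes.

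Before salt, the epidermis had the highest 40S levels. In standard medium 33 of 35 genes were higher in the epidermis than in the mean of the other 3 types, with a median difference of 0.69 and none lower. All genes were higher at 34.6% and lower at 32.9%, with a median of 0.02. The 2 exceptions were AT5G39850 and AT1G23410. The RPS3a gene AT3G04840, for a protein on the platform side of the body, read 9.90 to 10.49 in the 6 epidermis arrays, against 9.05 to 9.53 in the cortex and 8.96 to 9.72 in the endodermis. It was higher by 0.89 (SE 0.12, limma adjusted p = 1.6e-09), and in the stele standard 1 h replicate 3 (10.15) lay within the epidermis range. AT3G57490 was higher by 1.14 (SE 0.19).

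In the other types fewer genes stood out. The cortex had none higher and 3 lower in the limma fit (23.4% and 18.4% of all genes, and 1 and 5 members at an unadjusted p under 0.05), with AT3G53890 lower by 0.44 (difference -0.44, SE 0.11) and AT2G17360 at -0.29 (SE 0.11). In the endodermis 1 was higher and 11 were lower (24% and 30.2% of all genes). AT1G48830 was higher by 0.28 (SE 0.10), while AT1G23410 was at -1.10 (SE 0.22) and AT3G57490 at -1.08 (SE 0.19). The endodermis values of AT1G23410 lie below every array median, as do the endodermis group means of AT3G57490 (4.47 and 4.49). AT3G57490 read 4.30 to 4.71 in the 6 endodermis arrays, below all 6 arrays of the epidermis (5.63 to 6.95) and of the cortex (4.90 to 5.84). The stele had none higher and 15 lower (27.5% and 25.8% of all genes, and 1 and 19 members unadjusted), led by AT3G11510 at -0.58 (SE 0.13) and AT3G04920 at -0.54 (SE 0.14). That count was 5 without standard 1 h replicate 1, 6 without replicate 2 and 31 without replicate 3. The endodermis count of lower genes was 7 without standard 48 h replicate 3 and 18 without stele standard 1 h replicate 1. The cortex count was 1 without its standard 48 h replicate 1 or 2 and 6 without stele standard 1 h replicate 1.

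The number of members that differed with time on standard medium depended on the fit. Between 48 h and 1 h no 40S gene was called in the epidermis, endodermis or stele, and 1 in the cortex, against 6.14%, 9.12%, 21.5% and 11.7% of all genes. At an unadjusted p under 0.05 the members numbered 1, 0, 2 and 8 in the same order, all with a lower value at 48 h. The called gene was AT2G32060, for the head protein RPS12, which read 8.56, 8.54 and 8.56 at 1 h and 7.73, 7.81 and 7.67 at 48 h, a difference of -0.82 (SE 0.28, limma adjusted p = 0.046). The cortex arrays of each time sit close together and do not overlap. The pooled spread is wide for the cortex, and a fit on its 24 arrays alone called 29 members. With array weights the counts were 27 (cortex), 19 (endodermis) and 21 (stele), and the 1 cortex call was lost without any single cortex standard array. The shares of all genes in the fit on the cortex alone and in the weighted fit were not counted. These counts therefore do not set the members apart from other genes. Median differences were negative in all 4 types, at -0.22 for the epidermis, -0.37 for the cortex, -0.20 for the endodermis and -0.16 for the stele.

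Genes of 1 family did not always respond by the same amount. Differences between 2 family members within an array were compared between the 18 salt and 6 standard arrays of each cell type, by an exact permutation test, two-sided, over 134596 arrangements. Of 84 tests on 21 pairs in 13 families, 37 passed at an adjusted p under 0.05, 13 each in the epidermis and endodermis, 9 in the cortex and 2 in the stele. Without the arrays of low correlation, added after seeing the data, 36 passed, 3 of them in the stele. Without pairs that hold a gene tested through salt groups alone, 34 of 76 passed. Some type passed for 18 pairs, and none passed in all 4. The salt arrays pool 6 times, and only the shift of a pair's difference is read, since levels of different probe sets cannot be compared. Single arrays were shuffled, although the salt arrays come in groups of 3 by time, so they are not fully exchangeable. The p-values may thus be too small, and how often pairs of other genes pass was not tested.

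Within RPS9 in the epidermis, AT5G15200 changed by 1.11 and AT5G39850 by 1.93, a shift of -0.82 that is given as a description, since AT5G39850 passed the filter through salt groups alone. The salt and standard ranges of that pair overlap, at 4.87 to 7.61 and 6.38 to 7.64.

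Within RPS2 in the endodermis, AT2G41840 changed by 0.74 and AT3G57490 by 1.45. Their difference was 4.86 to 5.20 in the standard arrays and 3.76 to 4.85 in the salt arrays, with no overlap and a shift of -0.71 (exact permutation test, adjusted p = 0.00031, from the smallest p the arrangements can give, 7.4e-06). The same pair shifted by -0.59 in the epidermis (exact permutation test, adjusted p = 0.0064) and by -0.05 in the stele (exact permutation test, adjusted p = 0.66). Without the 3 arrays of low correlation the stele shift was -0.18 (exact permutation test, adjusted p = 0.085). Within RPS7 in the endodermis, AT1G48830 changed by 0.33 and AT3G02560 by 0.90, a shift of -0.57 (exact permutation test, adjusted p = 0.029). In the RPS2 pair the gene with the larger change, AT3G57490, is among the 7 with a mean value under 8. Its endodermis standard group means, 4.47 and 4.49, lie below every array median, so the size of the shift there is given as a description. The part of signal was not tested.

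**Figure D5:**
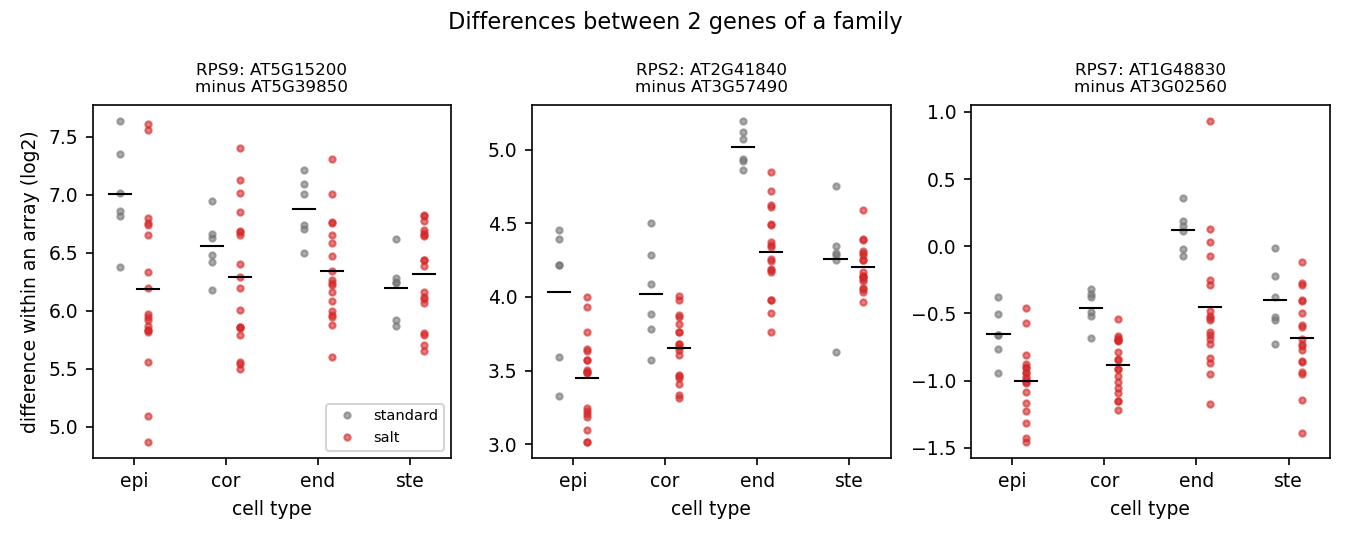
Difference between 2 genes of a family within each array (y axis, log2) in standard medium (6 arrays, grey) and salt (18 arrays, red) for the epidermis (epi), cortex (cor), endodermis (end) and stele (ste), with lines at the means. For RPS2 in the endodermis the salt arrays (3.76 to 4.85) lie below all standard arrays (4.86 to 5.20), and only the shift within a panel can be read.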

How the data were processed

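RNA from GFP-sorted root cells was measured on 96 ATH1 arrays, 3 in each of 32 groups. The deposited values are log2 expression values made by the authors with GCRMA in Affymetrix Expression Console, per the submitters' processing notes, which give no versions. GCRMA uses probe sequence to correct background, then makes arrays alike and joins probes into probe sets. No scaling was added. Probe sets were named by the platform annotation (13513 of 22810 pair with 1 gene, 503 with several, 8730 are not listed there and 64 are controls), and symbols come from the TAIR10.1 gene table (13333 of 13355 genes matched). No member had more than 1 such probe set. No sequences were printed, and coordinates were not used, since the files name no build. The values give no depth, so the number of arrays limits the precision.

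One mean per group was fitted to all 96 arrays with limma 3.58.1 in R 4.3.3 (64 residual degrees of freedom, eBayes), on genes with a group mean of 5 or more. Two-sided p-values were adjusted over 7281 genes per comparison (Benjamini-Hochberg), and calls need an adjusted p under 0.05. A 2-fold call also needs a change of 1 (log2). All 6 salt times of a type are set against the same 6 standard arrays, and 3, 8, 20 and 32 h have no standard group of their own. The fit was tested on simulated data.

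The members and lists were chosen with earlier results of these data known. Genes with array or group values in the text are, for each type, the 3 called members with the largest rises and falls and the 2 highest and lowest in standard medium. The rule also takes the 2 widest ranges among cell types at each time, the 4 widest family shifts and the members with the lowest and highest mean. Results of 4 members, which stay in all counts and medians, are not reported here. Lists of other genes are the large subunit, ribosome assembly, initiation, elongation, TOR, replication, salt and ABA, RACK1, meristem and cell type markers, with at most 2 named from each. The large subunit, initiation and elongation lists were to come from gene descriptions, which the tables used here do not hold, and were compiled by code after the files were seen. Organelle ribosomal proteins were not analysed. Replicate numbers do not pair samples: over 336 pairs of same-numbered groups within a cell type, the median correlation of deviations was -0.003, and 25.9% exceeded 0.1. Alternatives were each standard group alone, quantile normalization, median centring, other filters, 1 cell type alone, a replicate block, array weights, an intensity trend, and leaving out arrays.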

Additional observations from a re-analysis of the deposited data

Results flagged for a closer look

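The salt response differed among the 4 cell types by the F test itself. The test passed for 25 of 35 members at 1 h, 25 at 3 h, 4 at 8 h, 8 at 20 h, 20 at 32 h and 6 at 48 h, against 48%, 69.7%, 58.2%, 63.9%, 58.7% and 56.9% of all genes. The members' share is thus near that of all genes at 3 and 32 h and below it at 8, 20 and 48 h. Wide ranges past the test, on the log2 scale, were 1.51 for AT5G28060 and 1.39 for AT3G11510 at 1 h, and 2.51 for AT1G23410 at 3 h. The same gene had 1.24 at 8 h and 1.70 at 20 h, AT5G39850, which passed the filter through salt groups alone, had 2.14 at 32 h, and AT5G61170 had 0.87 at 48 h. Stele standard 1 h replicate 3, whose mean over the 40S genes was 9.31, enters all of these through the stele's reference.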

How the results depend on the processing

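For each cell type, the count of members higher at any salt time stayed within 1.5 times its value under every alternative tried, and so did the count of 2-fold rises. No called value reversed. Of 480 median changes recomputed, 479 kept their sign, and the other is endodermis 1 h without salt 1 h replicate 2. The median change in the cortex at 1, 3, 8, 20, 32 and 48 h was 0.296, 0.710, 0.825, 1.36, 1.65 and 1.07 against standard 1 h alone and 0.682, 1.10, 1.21, 1.72, 2.05 and 1.50 against standard 48 h alone. The endodermis at 32 h was 1.07 against standard 1 h alone. Quantile normalization gave 1.61, 1.91 and 1.34 in the cortex at 20, 32 and 48 h, and median centring 0.875, 0.928, 1.41, 1.72 and 1.16 at 3 to 48 h. Leaving out single arrays gave 1.27 to 1.34 at cortex 48 h.

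Members lower in the endodermis numbered 2 against standard 48 h alone, after quantile normalization, after centring and with no filter, 3 in the fit on that cell type alone, 8 without the arrays of low correlation, 19 with array weights, and 0 to 11 when arrays were left out singly. With no filter 1 member, AT2G39590, was lower in the epidermis. Between standard 48 h and 1 h in the cortex, the count was 2 under centring, with a group mean of 7 or more, with the replicate block and with the intensity trend, 0 with no filter, 29 on the cell type alone, 27 with weights, 5 without the arrays of low correlation, and 0 without any single cortex standard array. Weights gave 19 in the endodermis and 21 in the stele. The stele count was 4 without the arrays of low correlation and 0 to 6 when arrays were left out singly. All weighted counts come from a fit that leans on single arrays. Stele standard 48 h replicate 3 had a weight of 82.7, against 0.49 and 0.32 for replicates 1 and 2. Endodermis salt 1 h replicate 3 had 16.4, against 0.24 and 0.46. Shares of all genes were not counted under these alternatives.

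In standard medium the cortex had 14 lower under centring and 1 to 6 when arrays were left out, and 2 higher with weights, 1 without the arrays of low correlation and 0 to 2 when arrays were left out. The stele had 25 lower under centring, 31 with weights, 31 without the arrays of low correlation and 5 to 31 when arrays were left out. It had 1 higher with the group mean of 7, 1 with the replicate block, and 0 to 1 when arrays were left out. The endodermis had 6 lower without the arrays of low correlation and 7 to 18 when arrays were left out. The F test among cell types passed for 13 members at 3 h under centring, for 8, 15, 35 and 28 at 8, 20, 32 and 48 h with weights, and for 9 and 18 at 8 and 48 h without the arrays of low correlation. For these values the cause was not tested. Replicate numbers do not pair the samples, since 28 of 96 arrays correlate best with their own number, and the replicate block changed no other count by over 1.5 times. Family pairs past the test were 45 of 84 with salt at 20 to 48 h alone, 36 without the arrays of low correlation and 34 without genes tested through salt groups alone, both added after seeing the data. All members have probe sets named without a shared-gene suffix, so a restriction to such probe sets gives the values reported.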

Other observations

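Initiation factors, which load the 40S subunit onto messenger RNA, were called in both directions, as all genes were. Of 41 listed, 13 were tested. In the stele at 3 h 8 were higher and 1 lower (35.3% and 26.8% of all genes), with a median of 0.43. In the cortex at 48 h 6 were higher and 4 lower (32.9% and 28.1% of all genes). Among them were AT4G20980 at 0.57 (SE 0.18) and AT1G54290 at -0.51 (SE 0.16). In the endodermis at 1 h none was higher and 5 were lower (19.4% and 27.7% of all genes), with a median of -0.12. Of the elongation factors, 2 of 11 were tested, and both were higher in the epidermis at 3 h, AT5G19510 by 0.78 (SE 0.14) and AT5G12110 by 0.54 (SE 0.21). At that time 39.1% of all genes were higher there.

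Of the TOR pathway, known as a regulator of ribosome production, 3 of 8 listed genes were tested. In the epidermis at 8 h 2 were higher and 1 lower (38.5% and 23.1% of all genes). RAPTOR2 rose by 0.76 (SE 0.16) and RAPTOR1 by 0.39 (SE 0.13) there. In the cortex at 32 h none was higher and 2 were lower (34.9% and 30.8% of all genes), with a median of -0.34. None was higher in the cortex at 3, 8, 20 or 48 h either. PRL, the tested gene of 14 listed for replication and mitosis, was higher at all 6 times in the epidermis and cortex, from 8 h on in the endodermis and at 48 h in the stele. The 3 tested salt and ABA genes of 8 listed were higher after 1 h in all 4 cell types, with medians of 3.44 for the epidermis, 2.86 for the cortex, 2.57 for the endodermis and 2.78 for the stele. At that time no 40S gene was higher in the endodermis by the fit reported, and 3 were with array weights. Both cortex markers and both epidermis markers fell in the endodermis at 20 h, with medians of -3.33 and -2.31. GSO1, the endodermis marker, fell by 0.53 in the epidermis at 3 h, and the stele marker LHW rose there by 0.57. RACK1 had no gene measured, and the meristem marker measured, BBM, lay below the filter.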
